A study of Mus musculus with 21 samples.

Results

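Dbh, Phox2a, Tfap2b, Tbx20, Tbx2 and Tbx3, a set of 6 genes used as markers and regulators of noradrenergic and visceral motor neurons, were followed through 7 groups of neurons made from mouse embryonic stem cells. Members were found by gene symbol among 18193 genes on the array, and each gene was read by the probe set (a group of short probes against 1 transcript) with the largest SD over 21 arrays. The symbol search found 15 probe sets for the 6 genes. That SD includes the differences between groups, so the choice favours the probe set on which groups differ most.

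The study measured RNA of purified post-mitotic neurons on Affymetrix Mouse 430 2.0 arrays, with 3 arrays labelled as biological replicates in each group. Engineered lines named for 1 transcription factor each, behind the element NesE that the labels do not spell out, were compared with wild-type cells. The NesE-Lmx1a line was given SHH and FGF8 and collected after 10 or 14 days as mesencephalic dopaminergic neurons. The NesE-Nkx2.2 line was given SHH with either FGF8 or retinoic acid (RA) and collected after 10 days as serotonergic neurons. The NesE-Olig2 line was given SHH and RA and collected after 8 days as somatic motor neurons. Wild-type cells were collected after 10 days with FGF8, described as dorsal midbrain neurons, or after 8 days with RA, described as dorsal hindbrain neurons. The labels disagree on whether the wild-type cells also received SHH, so in every comparison of a line with the wild type, the line and SHH cannot be told apart. Each engineered line is 1 stem cell line, and clones within it were not given in the labels.

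Dbh encodes dopamine beta-hydroxylase, the enzyme that turns dopamine into noradrenaline. Phox2a is a homeodomain factor needed for noradrenergic neurons such as those of the locus coeruleus, and it is also present in cranial motor neurons that innervate viscera and branchial arch muscle. Tfap2b, or AP-2 beta, takes part in noradrenergic and sympathetic differentiation and is also found in neural crest and in dorsal neurons of the brain stem and midbrain. Tbx20 marks visceral and branchial motor neurons of the hindbrain and is a regulator of heart muscle. Tbx2 and Tbx3 are related T-box repressors with many sites of expression, the developing heart and limb among them.

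The upstream sequences of Dbh, Phox2a and Tbx20 are shown, because Phox2a is a homeodomain factor and TAAT is the core that homeodomains read. They are the 250 bases before the annotated start, 5′ to 3′ on the gene's strand, from RefSeq on GRCm38.p6, with TAAT or its reverse ATTA in capitals. Dbh lies on chromosome 2 and its window is chr2:27165257-27165506, plus strand. The Phox2a window is chr7:101818063-101818312, plus strand, and that of Tbx20 is chr9:24774304-24774553, minus strand.
Dbh: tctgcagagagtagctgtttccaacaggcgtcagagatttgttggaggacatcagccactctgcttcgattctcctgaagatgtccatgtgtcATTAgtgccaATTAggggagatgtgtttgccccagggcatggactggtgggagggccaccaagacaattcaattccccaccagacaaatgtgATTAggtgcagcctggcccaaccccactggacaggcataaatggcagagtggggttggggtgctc
Phox2a: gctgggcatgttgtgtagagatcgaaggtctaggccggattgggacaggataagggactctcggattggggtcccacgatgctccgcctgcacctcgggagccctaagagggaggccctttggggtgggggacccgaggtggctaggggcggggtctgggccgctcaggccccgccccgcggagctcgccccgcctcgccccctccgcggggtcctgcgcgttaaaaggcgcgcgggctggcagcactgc
Tbx20: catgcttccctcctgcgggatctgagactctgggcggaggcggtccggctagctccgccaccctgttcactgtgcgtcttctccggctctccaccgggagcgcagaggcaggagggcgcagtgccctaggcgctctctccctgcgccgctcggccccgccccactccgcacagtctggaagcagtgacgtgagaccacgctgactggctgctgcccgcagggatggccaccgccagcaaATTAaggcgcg

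The Dbh window held 3 such matches, at 157, 147 and 65 bases before the start, and Tbx20 held 1, at 11 bases before it. Phox2a held 0. Of 32851 RefSeq windows of the same length, 54.9% held at least 1 TAAT on either strand, so a match is common. The Phox2a and Tbx20 windows were rich in G and C, at 70.4% and 68.8%, against 53.2% for Dbh and a median of 52.4% over all windows. Phox2a and Tbx20 each held 2 copies of the GC box GGGCGG, counted on both strands, and Dbh held 0, with a match in 32.7% of all windows. The T-box core AGGTGT was in none of the 3 windows and in 11.8% of all of them. Of the other members, Tfap2b matched a window whose start lies inside its gene model, so it is not shown, and no window was matched for Tbx2 or Tbx3.

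Values are log2 signals that had been centred, probe set by probe set, on a median over 27 arrays, of which 21 are analysed here. A value is therefore a deviation from that median, 1 unit is a 2-fold difference, and levels cannot be compared between genes or called present or absent. Each group mean has n = 3 arrays. Comparisons used limma over all 21 arrays, which gives each gene 1 estimate of spread shared by all groups, with Benjamini-Hochberg adjustment over the 18193 genes. Calls needed an adjusted p under 0.05 together with a log2 difference of at least 1 in either direction. In RNA from many cells, fewer cells of a type and less RNA per cell cannot be told apart.

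Dbh was high in the FGF8 wild type and flat everywhere else. Its wild-type FGF8 arrays read 2.30, 2.98 and 3.47, while the 18 arrays of the other 6 groups ran from -0.04 to 0.13. No array of another group came near the wild-type FGF8 arrays, and the RA wild type lay at the baseline, with a mean of -0.04. The FGF8 wild type had a mean of 2.92 ± 0.58 (SD, n = 3). The difference from the Lmx1a line on the same day was -2.87 ± 0.18 (SE, limma adjusted p = 3.66e-07), and that from the Nkx2.2 line under FGF8 was -2.91 ± 0.18 (limma adjusted p = 1.86e-07). The RA wild type was lower than the FGF8 wild type by 2.96 on the log2 scale, a change of -2.96 ± 0.18 (limma adjusted p = 6.56e-08). Because 6 of 7 groups hardly varied, the shared spread is smaller than the spread within the FGF8 wild type; with only the compared arrays in the fit, the SE was 0.30 and the adjusted p 0.0286 for the Lmx1a line and 0.0237 for the Nkx2.2 line.

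The other probe sets of Dbh had the same group at the top, with smaller differences. One read 1.43, 0.78 and 0.54 in the FGF8 wild type and at most 0.09 on any other array. In the comparisons with the FGF8 wild type its log2 differences ran from -0.94 to -0.87, under the fold limit, so it was not called. The other read 1.33, 1.498 and 1.51 there, with other arrays scattered between -0.73 and 0.97. On all 3 probe sets, every FGF8 wild-type array thus lay above every other array. With the mean of the 3 sets in place of the chosen one, the difference from the Lmx1a line on day 10 was -1.62 (limma adjusted p = 8.68e-07).

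Phox2a did not share that restriction. Its single probe set read 0.81, 1.24 and 1.59 in the FGF8 wild type. Nkx2.2 cells with FGF8 read 1.19, 2.22 and -0.14. These groups overlapped, and their means of 1.21 and 1.09 differed by -0.12 ± 0.43 (limma adjusted p = 1.0). The RA wild type read 0.56, 0.24 and -0.14. The Lmx1a line read -0.07, 0.00 and -0.78 on day 10. Low arrays came from the Lmx1a line on day 14, at -1.24, -1.24 and -1.22, from the Olig2 line, at -1.23, -1.10 and -1.10, and from the Nkx2.2 line under RA, at -1.12, -1.21 and -0.44. Phox2a thus formed a ladder, in which no neighbouring groups were called apart.

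Phox2a fell in the Lmx1a line on day 14 against the FGF8 wild type by 2.45 (log2 change -2.45 ± 0.43, limma adjusted p = 0.00101), with all 3 arrays below all 3. Line and day cannot be told apart in that comparison, and within control-probe batch B, with 1 array on each side, the call was lost (-2.81, adjusted p = 0.185). Under FGF8 the Nkx2.2 line was 2.01 ± 0.43 above the same line under RA (limma adjusted p = 0.00953). All 6 arrays lie in control-probe batch B (a set of 12 arrays, defined with the control probes), and with the spread of that batch alone the adjusted p was 0.116. In the Olig2 line Phox2a was lower than in the RA wild type, at -1.36 ± 0.43 (limma adjusted p = 0.0387), and a batch block ended this call (adjusted p = 0.152), as did leaving out any Olig2 array (0.0778 to 0.108). It was also lost without RA wild-type replicate 1 (0.144) or 2 (0.0975).

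Tfap2b was high in both wild types. The FGF8 wild type read 9.20, 7.47 and 9.02, and the RA wild type read 7.21, 6.61 and 6.38. The 15 arrays of the engineered lines had a median of -0.02, and the highest of them, on day 14 of the Lmx1a line, read 2.11. No wild-type array overlapped a line array. Every line was far below its wild type. The log2 differences were -8.61 ± 0.56 for Lmx1a on day 10 (limma adjusted p = 5.82e-07), -7.34 ± 0.56 on day 14 (8.19e-07) and -8.36 ± 0.56 for Nkx2.2 under FGF8 (5.33e-07). Under RA they were -6.86 ± 0.56 for Nkx2.2 (7.34e-07) and -5.65 ± 0.56 for Olig2 (8.74e-06).

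Tfap2b was not equally low in all line arrays. The Lmx1a line read 1.52, 2.11 and 0.02 on day 14, and the Olig2 line 1.23, -0.02 and 2.05, so single arrays of both stood above the rest of the lines. The means of these groups, 1.22 ± 1.08 and 1.09 ± 1.04 (SD, n = 3), were not called apart from any other line: Lmx1a day 14 against day 10 was 1.27 ± 0.56 (limma adjusted p = 0.191). Between the wild types, Tfap2b was lower under RA by 1.83 (log2 change -1.83 ± 0.56, limma adjusted p = 0.0467). That call lay close to the threshold and was lost in 12 of 18 alternative analyses, among them those without FGF8 replicate 1 (adjusted p = 0.176) or 3 (0.152) and without RA replicate 1 (0.0645), 2 (0.132) or 3 (0.123). Its second probe set gave the same order, at 8.02, 6.12 and 7.59 with FGF8 and at 5.68, 4.99 and 5.36 with RA.

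**Figure D1:**
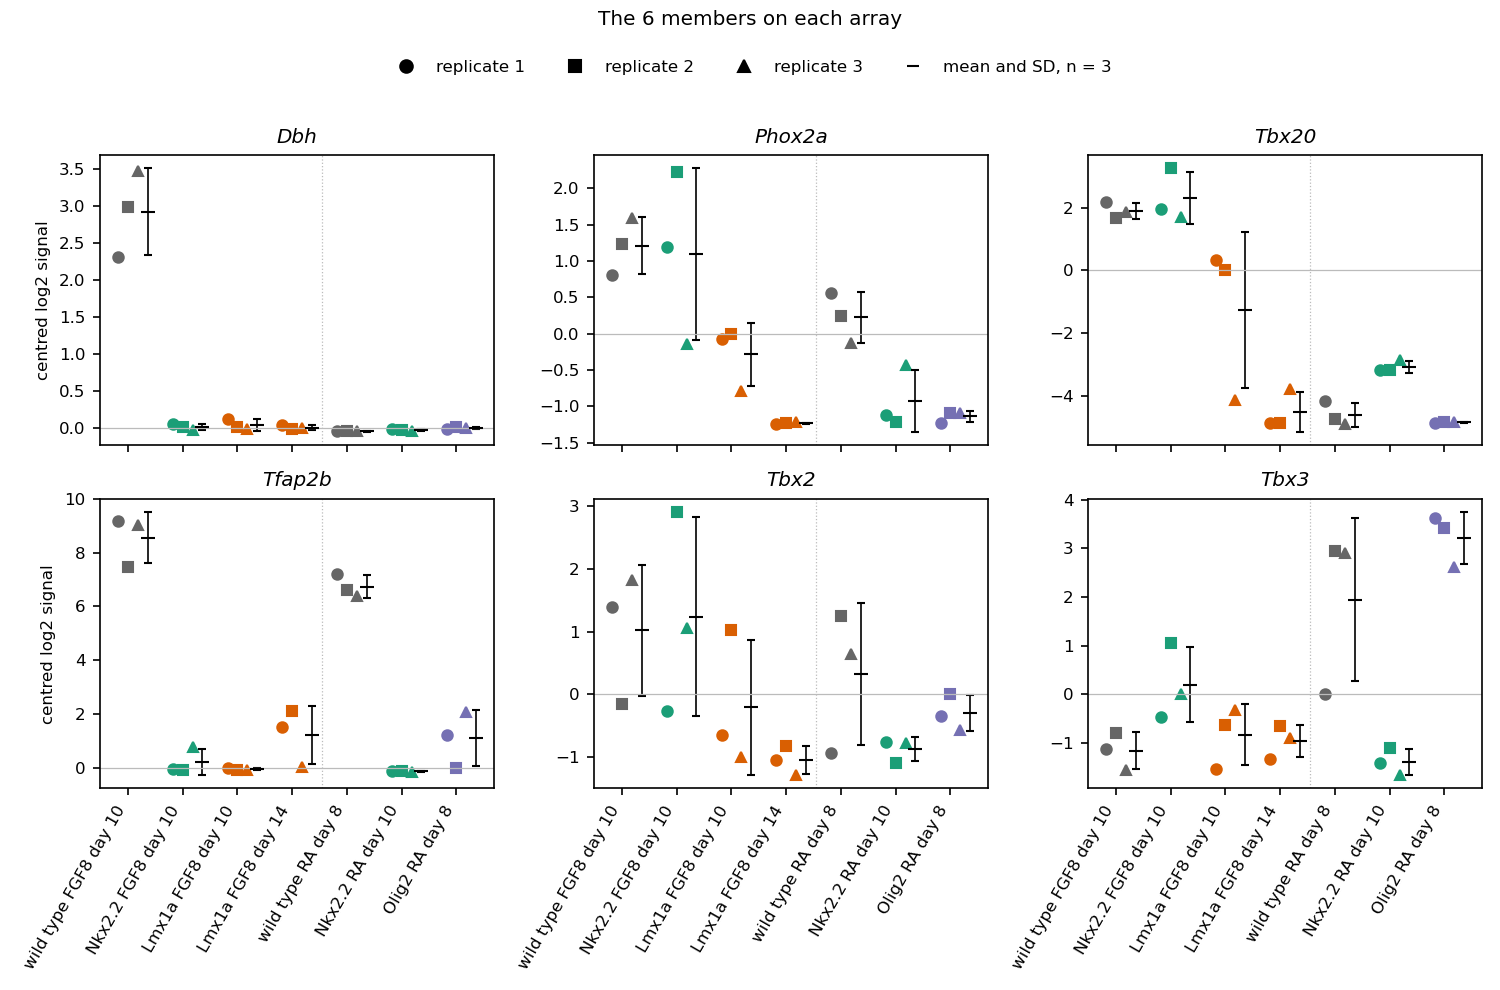
Each panel plots 1 member's centred log2 signal (vertical axis) on every array, grouped along the horizontal axis, with the group mean and SD (n = 3) as a black bar beside the points; a dotted line parts FGF8 groups from RA groups, and vertical scales differ between panels. Dbh stands out only in the FGF8 wild type, Tfap2b in both wild types, Tbx20 and Phox2a in FGF8 cells of the wild type and the Nkx2.2 line, and Tbx3 in Olig2 cells and RA wild-type cells.

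Tbx20 was high with FGF8 and low with RA, in Nkx2.2 and in wild-type cells. It read 1.95, 3.25 and 1.69 in the Nkx2.2 line under FGF8 and 2.16, 1.67 and 1.84 in the FGF8 wild type. It read -3.18, -3.19 and -2.86 in the Nkx2.2 line under RA, and -4.18, -4.75 and -4.90 in the RA wild type. No FGF8 array of either overlapped an RA array. The FGF8 excess was 5.37 ± 0.81 in the Nkx2.2 line (limma adjusted p = 0.000893), and the RA wild type was lower by 6.50 (log2 change -6.50 ± 0.81, adjusted p = 0.000171). The interaction between line and factor, -1.13 ± 1.15 (limma adjusted p = 0.765), did not pass the threshold, which does not show that the 2 effects are equal. FGF8 and RA cells of the Nkx2.2 line were of 1 day, while those of the wild type differed in day, at 10 and 8.

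In the Lmx1a line, which also had FGF8, Tbx20 split by array. Day 10 read 0.31, 0.00 and -4.14, and day 14 read -4.88, -4.87 and -3.79. Replicate 3 of day 10 lay with the day 14 arrays, so the days overlapped. The fall of 3.24 from day 10 to 14 (log2 change -3.24 ± 0.81, limma adjusted p = 0.0262) was lost without day 10 replicate 1 (-2.45, 0.0874) or 2 (-2.60, 0.101), without day 14 replicate 1 (0.0943) or 2 (0.0937), and with the mean of all probe sets (-1.28, 0.0587). On day 14 Tbx20 was below the FGF8 wild type by 6.41 (log2 change -6.41 ± 0.81, limma adjusted p = 7.49e-05) in every alternative. On day 10 it was below by 3.17 (-3.17 ± 0.81, adjusted p = 0.0376), a call lost without any of the 3 wild-type arrays (0.0577 to 0.125). Without Lmx1a replicate 3 this difference was -1.73 (adjusted p = 0.0233). The Olig2 line had the lowest group mean, with arrays at -4.87, -4.84 and -4.85.

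A second Tbx20 probe set put the same groups on top. It read 4.37, 4.01 and 4.40 in wild-type FGF8 arrays. Nkx2.2 cells with FGF8 read 3.20, 5.36 and 3.35. In the Lmx1a line on day 10 it read 0.00, 1.28 and -0.13. With this set the Lmx1a line on day 10 was below the FGF8 wild type by 3.88 (-3.88 ± 0.43, limma adjusted p = 0.000177 over 34945 probe sets), and day 14 did not differ from day 10 past the threshold (-0.52 ± 0.43, adjusted p = 0.444). The third set hardly varied, with an SD of 0.21 over the arrays and its highest values, 0.64 and 0.60, in the FGF8 wild type.

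Tbx2 varied widely between replicates, and its high groups overlapped most of the others. It read 1.39, -0.16 and 1.82 in the FGF8 wild type, -0.26, 2.90 and 1.06 in the Nkx2.2 line under FGF8, and -0.94, 1.24 and 0.65 in the RA wild type. The Lmx1a line read -0.65, 1.02 and -1.001 on day 10 and -1.05, -0.82 and -1.28 on day 14. The Nkx2.2 line under RA read -0.75, -1.10 and -0.78 and the Olig2 line -0.34, 0.00 and -0.56. Tbx2 was called in 0 of the 21 pairs of groups, against 8.67% of all gene and pair tests. Its largest difference in the set of comparisons, 2.11 ± 0.74 between FGF8 and RA in the Nkx2.2 line, had a limma adjusted p of 0.109 and an unadjusted p of 0.0121, and was called without Nkx2.2 FGF8 replicate 1 (2.86, adjusted p = 0.0349). Without replicate 2 it was 1.28 (adjusted p = 0.415). Likewise the Lmx1a line on day 14 lay below the FGF8 wild type by -2.07 ± 0.74 (adjusted p = 0.08), and this was called without wild-type replicate 2 (-2.66, 0.0338). Without wild-type replicate 1 it was -1.88 (0.211), and without replicate 3 it was -1.66 (0.253).

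Tbx3 went its own way. It read 3.62, 3.41 and 2.61 in the Olig2 line and 0.00, 2.94 and 2.90 in the RA wild type. The other 15 arrays had a median of -0.91 and a highest value of 1.05. FGF8 wild-type arrays were among the lowest, at -1.13, -0.79 and -1.57, so that Tbx3 was 3.11 ± 0.63 higher in the RA wild type than in the FGF8 wild type (limma adjusted p = 0.00512). The Nkx2.2 line under RA read -1.42, -1.11 and -1.65, and lay below the RA wild type by 3.34 (-3.34 ± 0.63, adjusted p = 0.0009) and below the Olig2 line by 4.61 (-4.61 ± 0.63, adjusted p = 8.2e-05). With only the compared arrays in the fit, the first call was lost (limma adjusted p = 0.0731). Within batch B, which holds 1 Olig2 array, the second difference was -4.01 and not called. Both set day 10 against day 8, so line and day cannot be told apart. Under FGF8 the same line, at -0.46, 1.05 and 0.00, was 1.36 ± 0.63 above its wild type, which did not pass the threshold (adjusted p = 0.254). The interaction, the line difference under FGF8 minus that under RA, was 4.70 ± 0.89 (limma adjusted p = 0.00759).

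Replicate 1 of the RA wild type was low for Tbx3, and it was also low for mesenchyme markers (Col1a1, Col1a2, Col3a1, Dcn, Lum and Pdgfra). The mean over these 6 genes was -0.19, 3.68 and 2.95 in RA wild-type replicates 1, 2 and 3, beside Tbx3 at 0.00, 2.94 and 2.90. In the Olig2 line, where Tbx3 was highest, the same mean was -0.51, -0.70 and 0.28, and in the Nkx2.2 line under RA, where Tbx3 was low, it was 1.30, 0.60 and 2.105. The part of mesenchymal cells in the wild-type values was not tested. A second probe set had the same groups on top, at 2.85, 2.57 and 2.30 in the Olig2 line and -0.60, 2.01 and 1.99 in the RA wild type, but with it the wild-type difference was 1.85 ± 0.59 and not called (limma adjusted p = 0.0591 over 34945 probe sets). The other 3 sets of Tbx3 hardly varied, with SDs of 0.04 to 0.05, and a mean over all 5 sets gave a wild-type difference of 0.96, under the fold limit.

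**Figure D2:**
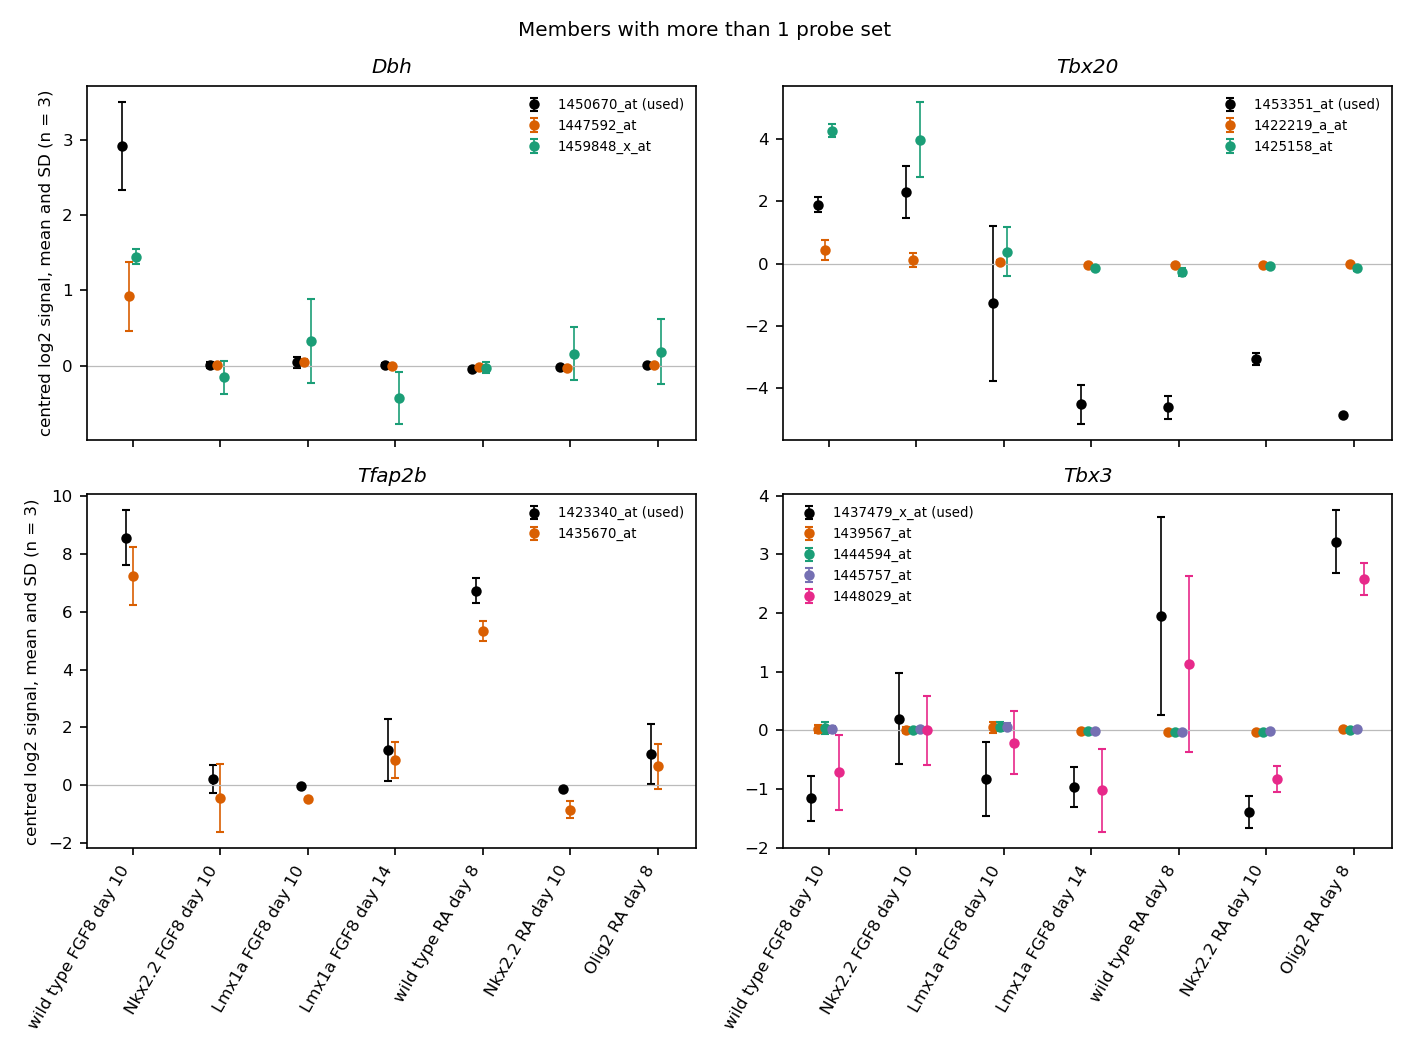
Group means with SD (n = 3) of every probe set of the 4 members that have more than 1, as centred log2 signal against group; black marks the probe set used. The second sets of Tbx20, Tfap2b and Tbx3 have the same groups on top, both weaker Dbh sets are highest in the FGF8 wild type at means of 0.92 and 1.45, and the flat sets of Tbx20 and Tbx3 lie near 0.

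The counts of members called are set beside the share of all genes called in the same comparison. Of the 6 members, 3 were called for the Lmx1a line on day 10 against the FGF8 wild type, all lower (Dbh, Tbx20 and Tfap2b), where 3.31% of all genes were called and 1.36% were lower. On day 14, 4 were called, all lower (the same 3 and Phox2a), where 9.82% of genes were called and 3.46% were lower. For Nkx2.2 cells with FGF8, 2 were called lower (Dbh and Tfap2b), where 4.53% of genes were called and 1.71% were lower. These comparisons share the same 3 wild-type arrays. Between the wild types 4 were called, where 7.4% of genes were: Dbh, Tbx20 and Tfap2b lower under RA (3.11% of genes) and Tbx3 higher (4.29%).

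Under RA the lines differed from the wild type in 2 members each. Phox2a and Tfap2b were lower in the Olig2 line, where 10.4% of genes were called and 4.85% were lower. Tfap2b and Tbx3 were lower in the Nkx2.2 line, where 18.0% of genes were called and 9.16% were lower. Both comparisons share the RA wild type. Phox2a and Tbx20 were higher in Nkx2.2 cells with FGF8 than with RA (2 members, with 4.31% of genes called and 1.65% higher).

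Tbx20 alone was called, and lower, on day 14 against day 10 of the Lmx1a line, with 4.24% of genes called and 1.28% lower. It was also the 1 member called between the Lmx1a and Nkx2.2 lines with FGF8, lower in Lmx1a cells (-3.57 ± 0.81, limma adjusted p = 0.0143), with 5.07% of genes called and 2.87% lower. That difference was -2.14 without Lmx1a replicate 3 and lost its call without Nkx2.2 replicate 2 (adjusted p = 0.0696). Tbx3 alone was called between the Nkx2.2 and Olig2 lines under RA, with 13.1% of genes called and 6.94% lower. These lines were collected on days 10 and 8, so line and day cannot be told apart there. The interaction was called for Dbh and Tbx3, where 4.38% of genes were called, 1.78% below 0 as Dbh and 2.6% above 0 as Tbx3. Over all 21 pairs of groups, where 8.67% of all gene and pair tests were called, Tbx20 was called in 13, Tfap2b in 11, Tbx3 in 9, Phox2a in 8, Dbh in 6 and Tbx2 in 0.

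**Figure D3:**
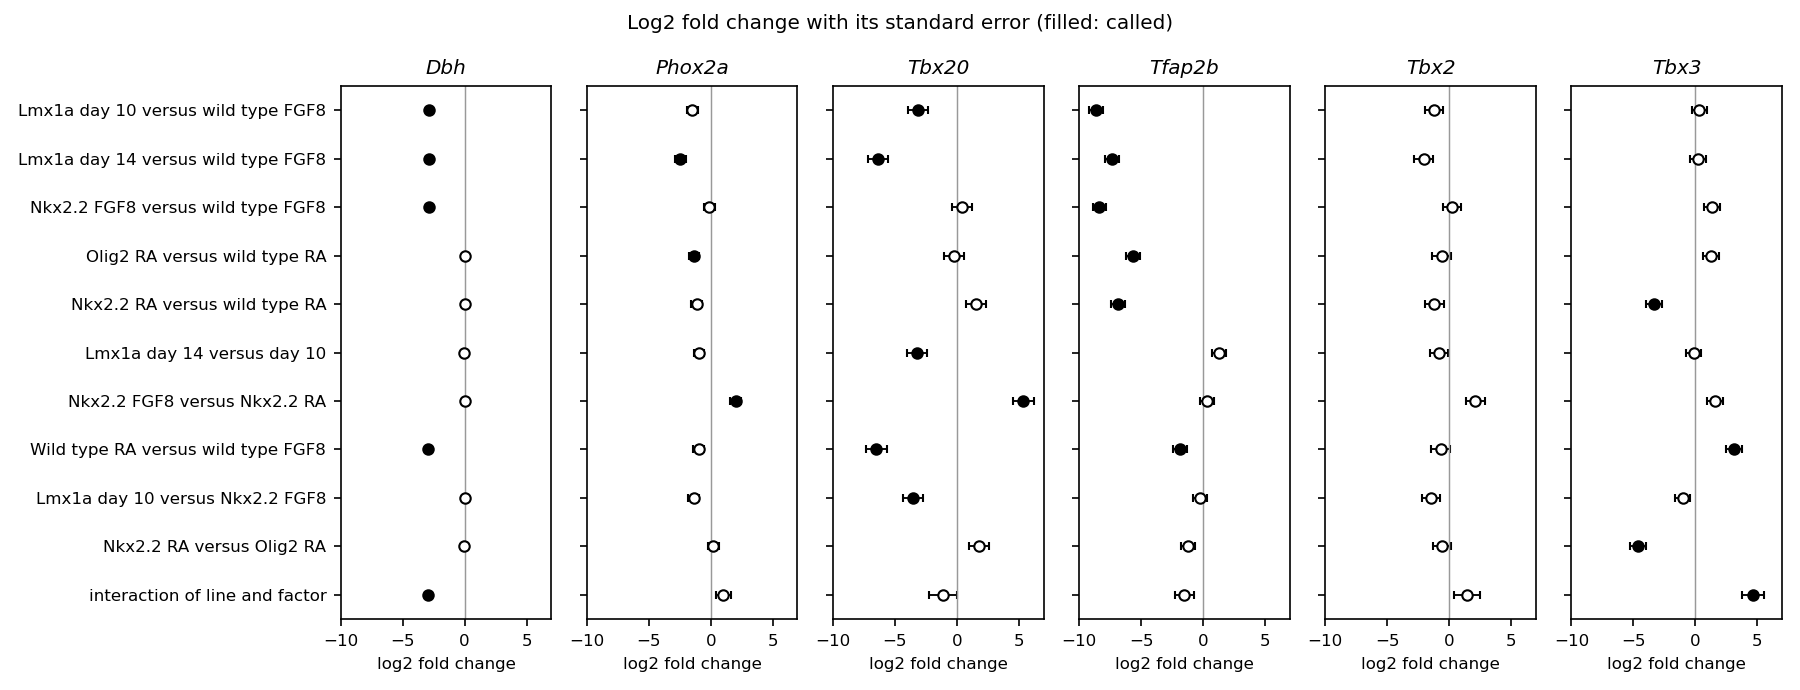
For each member (panel), the log2 fold change of each comparison is plotted with its limma standard error; filled points passed an adjusted p under 0.05 and 1 log2 unit, and open points did not. Tfap2b lies far to the left in all 5 comparisons of a line with its wild type, Dbh in those with the FGF8 wild type and in the interaction, and Tbx2 has no filled point.

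Ordered by level, few neighbouring groups could be told apart. Of 36 neighbouring pairs over the 6 members, 4 were called. Dbh dropped from the FGF8 wild type to the next group, Lmx1a day 10. Tbx20 dropped from the FGF8 wild type, second in its order after the Nkx2.2 line under FGF8, to Lmx1a day 10. Tfap2b dropped from the FGF8 to the RA wild type, and from there to Lmx1a day 14 (5.51 ± 0.56, limma adjusted p = 1.01e-05, in a pair where 11.5% of genes were called). In the orders of Phox2a, Tbx2 and Tbx3 no neighbours were called, which does not show that their steps were even. The largest step of Tbx3, from the RA wild type to Nkx2.2 cells under FGF8, was 1.75 ± 0.63 (limma adjusted p = 0.0658).

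The members moved partly together and partly apart. Over the 7 group means, the 15 pairs had a median Pearson r of 0.50, with 7 pairs above 0.5 and 3 below 0. These r values are descriptions over 7 points that share lines, factors and array processing. Phox2a and Tbx2 had the highest r, 0.95, and it stayed between 0.94 and 0.99 when any 1 group was left out. Phox2a and Tbx20 had r = 0.84 (0.77 to 0.99 with 1 group left out), and Tbx20 and Tbx2 had r = 0.78. The common feature of these 3 was high means in FGF8 cells of the wild type and the Nkx2.2 line, and a low mean in the Nkx2.2 line under RA and the Lmx1a line on day 14.

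The r of Dbh with Tfap2b, Phox2a and Tbx2 rested on 1 group. Dbh and Tfap2b had r = 0.73, which was -0.69 without the FGF8 wild type and 0.98 without the RA wild type. Dbh and Phox2a had r = 0.59, and -0.02 without the FGF8 wild type. Dbh and Tbx2 had r = 0.50, and 0.02 without it. Dbh and Tbx20 had r = 0.57, and 0.44 without it. Outside the FGF8 wild type the Dbh means ran only from -0.04 to 0.04, so no r without it describes a clear relation. So Dbh and Phox2a were both high in that group, yet Phox2a was as high in Nkx2.2 cells under FGF8, where Dbh read 0.05, 0.01 and -0.03. Tfap2b and Tbx20 were nearly unrelated, at r = 0.17. Among the 7 groups, the RA wild type was high for Tfap2b and low for Tbx20, while Nkx2.2 cells with FGF8 were low for Tfap2b and highest for Tbx20. Tbx3 had r between -0.45 and 0.12 with the others.

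Within groups the picture differed. Over the deviations of the 21 arrays from their group means, r ran from -0.36 to 0.54. Tbx2 and Tbx3 had 0.54 there, against 0.12 over group means, and Phox2a and Tbx20 had 0.54 in the arrays as well. In Nkx2.2 cells under FGF8, replicate 2 was the highest array for Phox2a, Tbx20, Tbx2 and Tbx3. Replicate 1 of the RA wild type was the lowest of its group for both Tbx2 and Tbx3, and the highest for Phox2a and Tbx20. Over all genes, arrays of the same group correlated at 0.22 to 0.89.

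**Figure D4:**
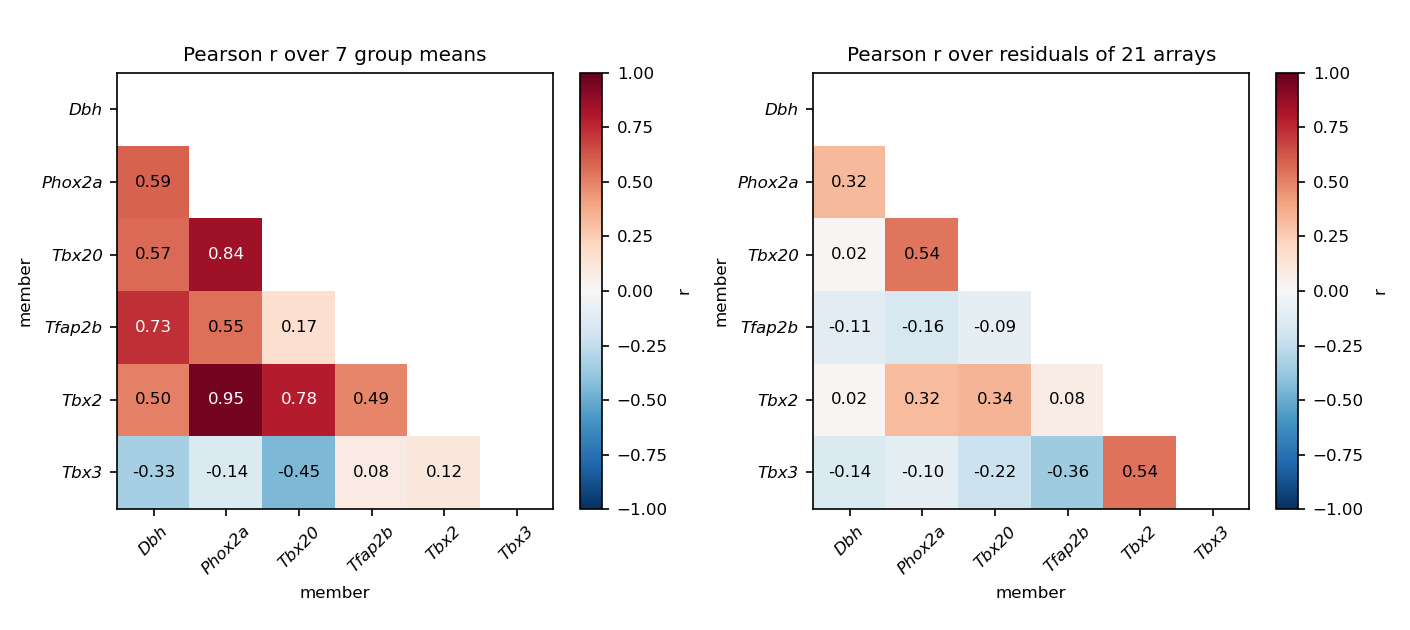
Pearson r for the 15 pairs of members, over the 7 group means (left) and over the deviations of the 21 arrays from their group means (right); colour and number both give r. Phox2a, Tbx20 and Tbx2 form the block of high r on the left, and the row of Tbx3 lies near or below 0.

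Of 12 measured genes of noradrenaline synthesis and handling, 5 were called higher and 0 lower in Nkx2.2 cells with FGF8 than in the FGF8 wild type, where Dbh fell (2.83% of all genes were called higher there), with a median log2 change of 1.44 over the list and -0.007 over all genes. They included Gch1, which makes the cofactor of tyrosine hydroxylase (6.79 ± 0.65, limma adjusted p = 1.38e-05), Ddc, aromatic amino acid decarboxylase (6.10 ± 0.67, 5.77e-05), and Maob, a monoamine oxidase (5.68 ± 0.34, 1.86e-07). These enzymes also serve serotonin and dopamine. Over the same arrays the mean of 5 astroglial markers was 1.39, 0.03 and 0.92 in Nkx2.2 cells and ran from -1.12 to -0.61 in the wild type, with Aqp4 and Aldh1l1 called higher and Slc1a2 lower, and their part in the result was not tested. For the Lmx1a line the list gave 5 higher on day 10, where 1.96% of all genes were, and 4 on day 14, where 6.37% were, and 0 lower on both. Th, tyrosine hydroxylase, read 5.55, 6.41 and 5.30 in the Lmx1a line on day 10 and 0.90, 3.90 and 0.86 in the FGF8 wild type. Slc6a2, the noradrenaline transporter, read 0.52, 0.04 and -0.05 in the FGF8 wild type and ran between -1.02 and 0.96 over all arrays, and was called in none of the comparisons. Between wild types, where Dbh also fell under RA, the list had 0 higher and 3 lower under RA, namely Ddc (-2.82 ± 0.67, adjusted p = 0.0136), Maoa and Cyb561. There 3.11% of all genes were lower.

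Of 8 other measured noradrenergic factors, 2 were called lower and 0 higher in the Lmx1a line on each day against the FGF8 wild type: Tfap2a and Tlx3. In the Nkx2.2 line under FGF8 the same 2 were lower, and Gata2 (3.36 ± 0.54, limma adjusted p = 0.00133) and Gata3 (3.67 ± 0.65, 0.00274), zinc finger factors shared by noradrenergic and serotonergic neurons, were higher. Against the RA wild type, 1 of the 8 was higher and 4 were lower in the Olig2 line, with a median log2 change of -1.97, and 2 were higher and 3 lower in the Nkx2.2 line, with a median of -0.39. Of all genes, 5.5% were called higher and 4.85% lower in the Olig2 line, and 8.84% higher and 9.16% lower in the Nkx2.2 line. Against the FGF8 wild type, 1.36% of all genes were lower in the Lmx1a line on day 10 and 3.46% on day 14. In Nkx2.2 cells under FGF8, 1.71% were lower and 2.83% higher. Between the wild types 2 of the 8 were higher and 1 lower under RA, with 4.29% of all genes higher and 3.11% lower. The 1 higher gene in the Olig2 line was Hand2, a factor of sympathetic neurons, at 3.52, 2.94 and 3.91. It lay at 0.00, 0.02 and -0.06 in the FGF8 wild type, where Dbh was high.

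Of the other visceral motor genes, some rose in the Olig2 line, whose label is somatic motor. Of 10 measured genes, 5 were called higher and 0 lower there against the RA wild type (5.5% of all genes were higher), with a median log2 change of 2.66 against 0.04 over all genes. They were Prph (peripherin, 7.65 ± 0.65, limma adjusted p = 1.69e-06), Slc18a3 (the vesicular acetylcholine transporter, 6.20 ± 0.70, 3.16e-05), Isl1 (5.39 ± 0.41, 4.43e-07), Ret and Chat. Cholinergic genes such as these serve somatic motor neurons too, and of 6 somatic motor factors 3 were higher and 0 lower, Mnx1 by 6.97 ± 0.24 (5.17e-11). Tbx20 had its lowest group mean, -4.85, in the same line, not called apart from the RA wild type (-0.24, limma adjusted p = 0.86), and Phox2a its second lowest, -1.14. In the Nkx2.2 line, 5 of the 10 visceral motor genes were higher and 0 lower under FGF8 than under RA, as Tbx20 and Phox2a were. Of all genes, 1.65% were higher there. Isl1, a LIM homeodomain factor of all motor neurons, differed most, by 7.20 ± 0.41 (limma adjusted p = 4.18e-08), with -0.23, 1.26 and 0.67 under FGF8 and -6.84, -7.04 and -6.01 under RA. Chat read 0.01, 1.24 and -0.03 in those FGF8 cells, so only replicate 2, the array with the highest Phox2a and Tbx20, stood above the baseline.

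A close relative of Tfap2b moved with it except between the wild types. Tfap2a read 4.67, 3.60 and 4.73 in the FGF8 wild type, 6.15, 5.69 and 5.75 in the RA wild type and at most 0.78 elsewhere. It was 1.53 ± 0.25 higher under RA (limma adjusted p = 0.00113), while Tfap2b was lower there. Tfap2d was high in the FGF8 wild type alone, at 4.54, 1.03 and 4.04, as Dbh was. Of the 4 other AP-2 genes, 2 fell in the Lmx1a line on day 10 and 3 on day 14, 2 in Nkx2.2 cells under FGF8, and 1 each in the RA lines, with 0 higher. Over all genes, 1.36% were lower in the Lmx1a line on day 10, 3.46% on day 14 and 1.71% in Nkx2.2 cells under FGF8. Under RA, 4.85% were lower in the Olig2 line and 9.16% in the Nkx2.2 line. Of the 12 other T-box genes measured, 0 or 1 was called in each direction in every comparison. Between 1.28% and 9.16% of all genes were called per direction, so these counts are near that share. Tbr1, a factor of cortical projection neurons, read 4.68, 1.42 and 4.58 in the FGF8 wild type and at most 0.77 elsewhere.

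Of 14 measured genes of dorsal interneurons, 8 or 9 were called lower in each of the 5 comparisons of a line with its wild type, where Tfap2b was lower too. Between 1.36% (Lmx1a day 10) and 9.16% (Nkx2.2 under RA) of all genes were called lower in these comparisons. Lmx1b in the Nkx2.2 line under RA was the 1 call higher. Between the wild types, where Tfap2b was lower under RA, 3 of the 14 were higher and 3 lower, with a median log2 change of 0.25. Of all genes, 4.29% were higher and 3.11% lower there. Lbx1, a homeodomain factor of dorsal hindbrain and spinal neurons, fell by 5.60 in the Lmx1a line on day 10 (-5.60 ± 0.34, limma adjusted p = 3.66e-07) and was likewise lower in Nkx2.2 cells under RA (-7.17 ± 0.34, 2.84e-09). Of 12 measured BMP ligand and response genes, whose signals pattern dorsal neural tissue, 1 was higher and 0 lower in the Lmx1a line on day 10 (Bmp5, 2.40 ± 0.57, limma adjusted p = 0.0245), 2 higher and 0 lower on day 14, and 1 higher (Bmp5) and 1 lower (Id2) in Nkx2.2 cells with FGF8. Under RA, 1 was higher in the Olig2 line (Bmp7, 3.73 ± 0.75, adjusted p = 0.00326), and 0 were higher and 2 lower (Smad6 and Smad7) in the Nkx2.2 line. In the Nkx2.2 line, 4 were lower and 0 higher than in the Olig2 line under RA, where 6.94% of all genes were lower. Over all genes, 1.96% were higher in the Lmx1a line on day 10 and 6.37% on day 14. In Nkx2.2 cells with FGF8, 2.83% were higher and 1.71% lower. Under RA, 5.5% were higher in the Olig2 line and 9.16% lower in the Nkx2.2 line.

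The genes most like each member over the 21 arrays were taken from 2062 genes with an SD of 1 or more. For Dbh they were Pax3 (r = 0.90), Lhx9 (0.89) and Neurog1 (0.87), transcription factors with means of 4.48, 7.14 and 4.61 in the FGF8 wild type. For Tfap2b they were Prrxl1 and Tfap2a (0.93 each) and Lbx1 (0.92), high in both wild types. For Phox2a they were Nkx1-2 (0.88), Acta1 (0.82) and Pmfbp1 (0.80), and for Tbx20 they were Ppp1r17 (0.81), Greb1 (0.80) and Nkx1-2 again (0.77), so that 1 gene was shared by both lists. For Tbx3 they were Tex12 (0.92), Hoxa7 (0.91) and Hic1 (0.90), all highest in the Olig2 line and next in the RA wild type. Tbx2 had no close partner, with Ppp1r1c (0.69), Slc37a1 (0.64) and Nefl (0.63). These r values rest on the same arrays, which share groups, and carry no test.

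**Figure D5:**
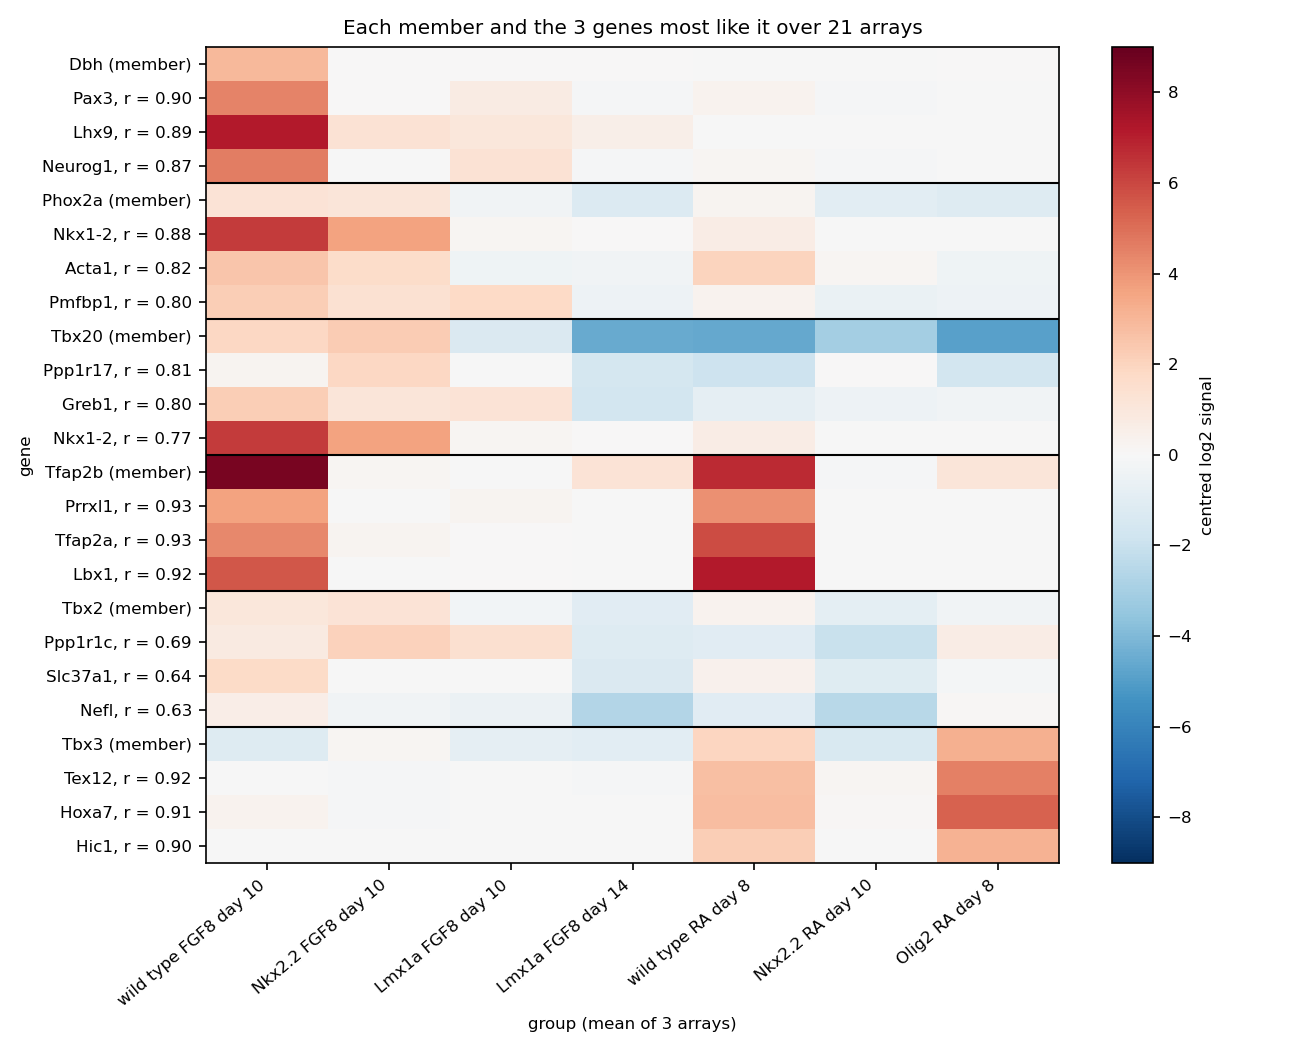
Each member and the 3 genes most like it, as the mean centred log2 signal (colour) in each group (columns, n = 3 arrays), with r over the 21 arrays in the row names. Dbh partners are high in the FGF8 wild type, Tfap2b partners in both wild types, and Tbx3 partners in Olig2 cells and RA wild-type cells.

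Acta1, an actin of skeletal muscle, is a partner of Phox2a, and Tbx20 is also a heart muscle gene, so muscle markers are given beside them. The mean over 6 heart muscle markers ran from 0.71 to 1.27 in the FGF8 wild type, from 1.23 to 2.30 in the RA wild type, from 0.20 to 0.85 in Nkx2.2 cells under FGF8, and was at most 0.13 elsewhere. Actc1, a cardiac and early skeletal muscle actin, read 3.54, 2.64 and 4.68 in the FGF8 wild type, 6.62, 5.69 and 3.99 in the RA wild type and 3.13, 3.18 and 1.14 in Nkx2.2 cells under FGF8. The group means of Nkx2-5, Myl7 and Myh6, also among the 6 markers, lay between -0.09 and 0.24 throughout. The remaining markers, Tnnt2 and Myh7, are not given singly. In the RA wild type the mean over the 6 markers was higher than Actc1 and these flat markers account for. Tbx20 was at -4.18, -4.75 and -4.90 in the RA wild type, the group with the highest muscle markers. It was high in the FGF8 wild type and in Nkx2.2 cells under FGF8, whose muscle means are given above. The part of muscle cells in the Phox2a and Tbx20 values was not tested.

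Other cell type markers moved with single arrays. The epithelial and trophoblast mean over 7 genes was 2.51, 0.97 and -0.64 in Nkx2.2 cells under FGF8, beside Phox2a at 1.19, 2.22 and -0.14. In the Lmx1a line on day 10, mesenchyme markers were at -2.28, -2.30 and 0.23, beside Tbx20 at 0.31, 0.00 and -4.14. The neural crest mean over 5 genes ran from 0.58 to 1.84 in the RA wild type and from -0.995 to 0.70 in the FGF8 wild type, where Tfap2b was higher. The mean over 9 neuron markers ran from -0.93 to 0.61 over all arrays. Its group medians were lowest in the Lmx1a line on day 14 (-0.556) and the Nkx2.2 line under RA (-0.444). Elsewhere they ran from 0.025 to 0.195. Phox2a, Tbx20 and Tbx2 had low means in both of those groups, and Phox2a and Tbx20 also in the Olig2 line. Means over pluripotent, endothelial and blood markers lay between -0.09 and 0.88, and the astroglial mean between -1.12 and 1.59. The part of these cells in the values of the members was not tested.

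Across the series, bioC hybridization controls split the arrays into batch A, with 9 arrays between -2.75 and -1.27, and batch B, with 12 between -0.15 and 0.65. Batch A holds the Lmx1a day 10 group whole and 2 arrays each of Lmx1a day 14, Olig2 and the FGF8 wild type; the labels name no batch. Labelling controls were lowest in the Lmx1a line on day 10, at -3.83 to -3.68, against -1.80 to 2.03 elsewhere, so wherever that group is compared, labelling and group cannot be told apart. With the batch as a block, Dbh in the Lmx1a line on day 10 was -2.78 ± 0.17 and Tfap2b -8.58 ± 0.60 against the FGF8 wild type, and within batch A they were -2.60 ± 0.19 and -8.38 ± 0.57. Tbx20 was -3.05 ± 0.87 with the block, and its call was lost (limma adjusted p = 0.0663), as it was within batch A (-3.19, 0.337). Between the Lmx1a and Nkx2.2 lines, the Tbx20 call was also lost with the block (-3.23, 0.122), and these groups share no batch. Within batch B, the FGF8 excess of Tbx20 in Nkx2.2 cells was 5.37 ± 0.41 (limma adjusted p = 0.00294). The wild-type difference of Tbx3 there was 3.51 and not called, and it rested on 1 FGF8 wild-type array.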

How the data were processed

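RNA of 21 samples in 7 groups of 3 was analysed, with groups and replicate numbers taken from the labels. The deposited values are log2 signals; GCRMA is named in the submitters' processing notes, with its version not given in the sources used here. They show centring of each probe set on its median over 27 arrays: at most 13 values of a probe set lie above 0 and at most 13 below. The 6 other arrays are not used here. Of 45101 probe sets, 34945 have 1 gene symbol in the platform annotation, 932 have several and 9160 none, beside 64 controls. This gave 18193 genes, each by its probe set with the largest SD.

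Differences were tested with limma 3.58.1 in R 4.3.3 (lmFit with 1 mean per group, contrasts.fit, eBayes, 2-sided; 14 residual and 1.11 prior degrees of freedom), in 10 comparisons and 1 interaction. The procedure was tested on simulated data. Whether replicates came from separate cultures is not stated beyond the label, and p-values measure the spread between these arrays, whose number limits precision. Members, lists and tests were chosen with earlier results of these data known. Named genes are the members, up to 3 called genes per list and comparison with the largest change, Th, Slc6a2 and Tfap2a, and the 3 genes most like each member; Ret, Chat and single cell type markers were singled out after their values were seen. Alternatives were another probe set rule, scaling, filter, moderation, threshold, array weights, the batch or replicate number as a block, fewer samples, each array left out and 3 arrays that stand apart left out. Promoter windows were searched on both strands. Plots used matplotlib 3.10.9.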

Additional observations from a re-analysis of the deposited data

Results flagged for a closer look

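The difference of the Nkx2.2 line from the wild type was not the same under both factors for 2 members, by a test of the difference itself. For Dbh the line difference under FGF8 minus that under RA was -2.92 ± 0.25 (SE, limma adjusted p = 6.52e-06). The line was below the wild type by 2.91 under FGF8 (-2.91 ± 0.18) and 0.02 ± 0.18 from it under RA, where all 6 arrays lay at the baseline. A lowering of Dbh by the line could therefore not have been seen under RA. The Dbh result restates that Dbh was high in the FGF8 wild type alone. For Tbx3 the same difference was 4.70 ± 0.89 (limma adjusted p = 0.00759): the line was 1.36 ± 0.63 above the wild type under FGF8 and below it by 3.34 under RA (-3.34 ± 0.63). Within batch B alone, which holds 1 FGF8 wild-type array, the Tbx3 difference was 5.10 and no longer called. On the RA side the line was collected on day 10 and the wild type on day 8, so line and day cannot be told apart there. The difference was not called for Phox2a (1.03 ± 0.60, adjusted p = 0.41) or Tfap2b (-1.50 ± 0.80, adjusted p = 0.337).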

How the results depend on the processing

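Of 24 member calls, 13 held under every alternative: all of Dbh, all of Tfap2b but that between the wild types, and Tbx20 in Lmx1a day 14 against the FGF8 wild type, in Nkx2.2 cells between factors and between the wild types. No alternative read a member by another probe set alone. Over 1206 single values of members, 1121 kept direction and side of the threshold, 49 lost it, 35 gained it and 1 turned: Phox2a in Nkx2.2 cells under FGF8 against the wild type was 1.18 with array weights (adjusted p = 8.04e-05), against -0.12. Array weights ran from 0.0621 to 1080, the highest on FGF8 wild-type replicate 1, and their estimation stopped before convergence. With them the number of members called rose to 5 for the Nkx2.2 line under FGF8, 5 for it under RA, 4 for Lmx1a day 14 against 10, 4 for Nkx2.2 between factors, 4 for Lmx1a against Nkx2.2, 3 for Nkx2.2 against Olig2 and 5 for the interaction.

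At an adjusted p under 0.01 the count was 1 for Olig2, 0 between Lmx1a days and 0 for Lmx1a against Nkx2.2. With the batch as a block it was 1 for Olig2 and 0 for Lmx1a against Nkx2.2. Within batch B it was 1 for Nkx2.2 between factors, and within batch A 0 between Lmx1a days. A call was also lost for Olig2 and for the interaction within batch B, which holds 1 Olig2 and 1 FGF8 wild-type array. With only the arrays compared it was 0 between Lmx1a days, 1 for Nkx2.2 between factors, 2 between the wild types, 0 for Lmx1a against Nkx2.2 and 2 for Nkx2.2 against Olig2. Between Lmx1a days it was 0 with the mean of probe sets and 0 without 3 arrays that stand apart (Lmx1a day 10 replicate 1, Nkx2.2 FGF8 replicate 1 and wild-type FGF8 replicate 2), an alternative chosen after seeing the data. The range filter gave 2 for Lmx1a against Nkx2.2. Over all genes, the batch block took the calls between the wild types from 1346 to 817 and those for Lmx1a against Nkx2.2 from 923 to 490, and leaving out the 3 arrays took those of the interaction from 796 to 1629. The cause was not tested. Within-batch values could not be had where a group had no array in the batch.

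With 1 array left out, members called ranged from 2 to 3 for Lmx1a day 10 against the wild type, 4 to 5 for day 14, 2 to 2 for Nkx2.2 under FGF8, 1 to 2 for Olig2, 2 to 3 for Nkx2.2 under RA, 0 to 1 between Lmx1a days, 2 to 3 for Nkx2.2 between factors, 3 to 4 between the wild types, 0 to 2 for Lmx1a against Nkx2.2, 1 to 2 for Nkx2.2 against Olig2 and 2 to 2 for the interaction. With 1 group left out the median r ranged from 0.204, without the FGF8 wild type, to 0.726, without Nkx2.2 under FGF8.

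Whether replicate numbers pair the arrays was not settled. Deviations of arrays with the same number correlated at 0.00603 on average over 63 pairs (lowest -0.35). Those with different numbers correlated at -0.00337 over 126 pairs, yet 12 of 21 arrays were closest to their own number. With the replicate block, 3 members were called for Lmx1a day 10 against the wild type, and 1 member call changed, Tfap2b between the wild types (adjusted p = 0.0563). Centred values give no signal over background, so faint probe sets cannot be told from silent ones.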
